A study of Mus musculus with 20 samples.

Results

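Editing was examined at 20 adenosine-to-inosine sites in an intron of Adarb1, the mouse gene that encodes the RNA-editing enzyme ADAR2. The deposited tables list 48425 known sites, of which 52 carry the gene name Adarb1. The 20 sites were taken because they had at least 50 reads in both libraries of at least 1 group, and all 20 had at least 50 reads in every library. They lie on chromosome 10 between positions 76786709 and 76786842 of mm9, on the minus strand, all annotated as intronic. They lie within 134 bases of each other in the same libraries, so the 20 sites are not independent measurements; whether single reads spanned them was not tested. The other 32 Adarb1 sites (24 nonsynonymous, 4 synonymous and 4 intronic) had at most 14 reads in any library.

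The cells were mouse embryonic fibroblasts, connective tissue cells grown from mouse embryos, and the assay was amplicon sequencing of reverse-transcribed RNA. The lines are an ADAR1-null line (ADAR1_NULL), a line without the p150 form of ADAR1 (P150_KO), an ADAR2-null line (ADAR2_NULL), a STAT2-null line (STAT2_NULL) and the line labelled ADAR1_WT, called wild type below. Each line was sampled with interferon and untreated, with 2 libraries in each of the 10 groups and 20 libraries in all. Each genotype is 1 line, so genotype and any other difference between lines cannot be told apart, and no label names ADAR1_WT as the matched control of the others. The labels give no strain, interferon type, dose or duration, and the design text speaks of 6 lines, of which the remaining one was not analysed here. Expression was not measured, so neither the absence of the targeted proteins nor fibroblast markers could be checked.

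ADAR enzymes deaminate adenosine in double-stranded RNA, and the resulting inosine appears as guanosine in cDNA. ADAR1 is made as a constitutive nuclear form, p110, and as p150, a longer form whose promoter responds to interferon. STAT2 is a transcription factor of type I interferon signalling. ADAR2 edits mainly nuclear RNA, and in rat it is known to edit an intron of its own pre-mRNA. The edited intron there gains a splice acceptor that shifts the reading frame, which lowers the amount of full-length ADAR2 protein. Which of the sites below corresponds to that rat acceptor was not assigned.

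The editing level is the share of reads over a site that carry the edited base. Coverage of the 20 sites ran from 1738 to 7126 reads per library, against 4389326 to 5559674 reads summed over all sites in a library. The 12 sites from position 76786727 to 76786813 had 2.01 to 2.02 times the coverage of the lowest site in the amplicon, and the other 8 at most 1.01 times. The reason for the step was not tested, and counting 1 of every 2 reads at those 12 sites changed no call. Sites are named below by their distance in bases from the most edited site (position 76786805, site 0), with positive numbers running in the direction of transcription. Wilson 95% intervals on single libraries cover counting error only, since amplicon reads carry no molecular identifiers. These intervals used every counted read at all 20 sites. They did not overlap between the 2 libraries of a group in 49 of 200 pairs of site and group, so the spread between libraries was often wider than this counting error. Neither the intervals nor the limits given below for 0 edited reads were recomputed with 1 of every 2 reads at the 12 sites.

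**Figure D1:**
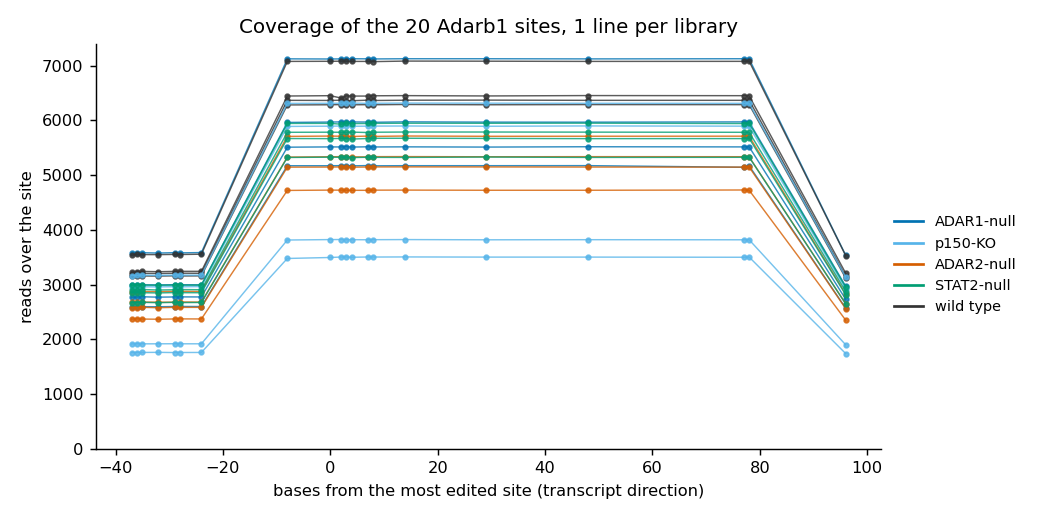
Reads over each of the 20 Adarb1 sites (vertical axis, reads) against the distance of the site from the most edited site in the direction of transcription (horizontal axis, bases). Each line is 1 of the 20 libraries, coloured by cell line; the 12 central sites have 2.01 to 2.02 times the coverage of the lowest site, and no library falls below 1738 reads.

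Editing was concentrated in a few positions of the amplicon. Site 0 had the highest mean over the 10 groups, at 7.50%. The sites whose mean over the groups also reached 1% were site -24 (position 76786829, 2.47%), site -29 (76786834, 1.51%), site +29 (76786776, 1.45%), site -28 (76786833, 1.31%) and site -8 (76786813, 1.16%). Of these 6, 5 lie at or upstream of site 0 and site +29 alone lies downstream. Site -35 (76786840) fell just short of 1%, with a mean of 0.899%, and site +96 (76786709) followed at 0.726%. The 14 sites below 1% gave 280 values with a median of 0.253% and a maximum of 3.0%, and 223 of these values were below 0.5%. No background at unedited positions was measured here, so how far such levels stand above sequencing error was not tested.

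**Figure D2:**
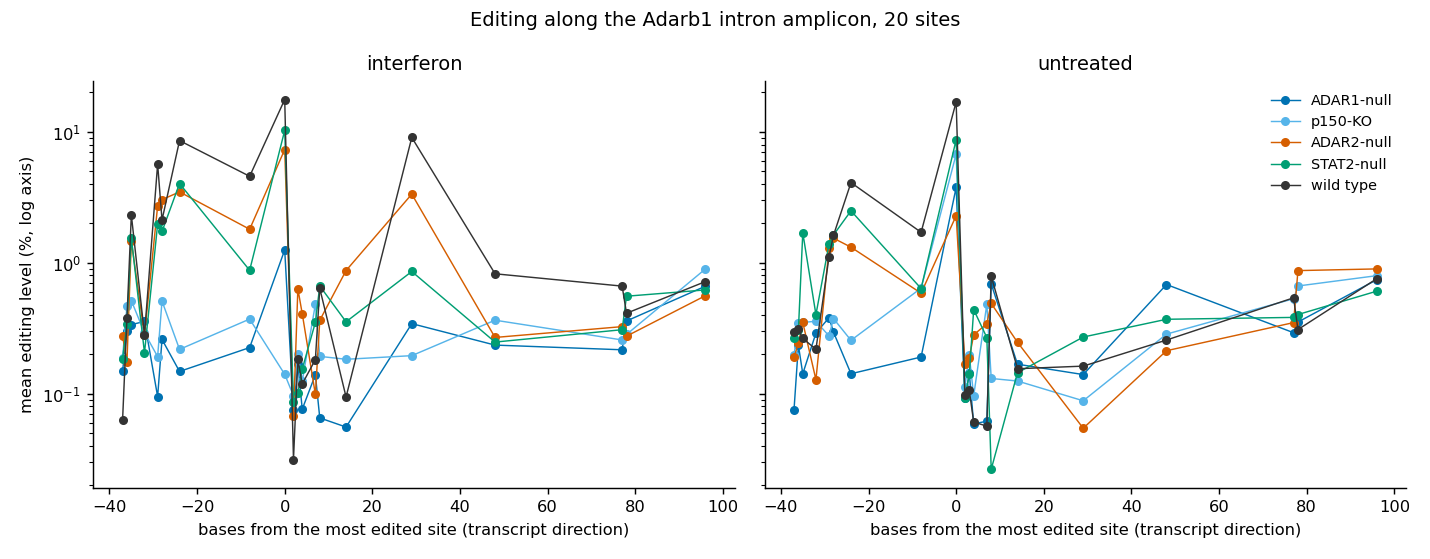
Mean editing level of the 2 libraries of each group (vertical axis, percent, log scale) at the 20 Adarb1 sites against their distance from the most edited site (horizontal axis, bases, direction of transcription). Interferon is on the left and untreated on the right, with 1 line per cell line; site 0 is the highest point in every group except interferon-treated p150-knockout cells, and site +29 stands out from its neighbours in treated wild-type and ADAR2-null cells.

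Site 0 was edited in every line, including the line without ADAR2. Its level was 2.40% and 0.109% in treated and 4.38% and 3.15% in untreated ADAR1-null libraries. It was 0.0523% and 0.229% in treated and 6.86% and 6.63% in untreated p150-knockout libraries. It was 6.56% and 8.08% in treated and 3.26% and 1.32% in untreated ADAR2-null libraries. All libraries of these 3 lines lay below every wild-type library. STAT2-null libraries had 10.3% and 10.3% with interferon and 6.78% and 10.6% untreated. Wild-type libraries had 13.1% and 22.2% with interferon and 14.1% and 19.7% untreated. The 2 wild-type groups overlapped each other and lay apart from all other groups. Below them, neighbours in the order of means overlapped from treated STAT2-null (10.3% ± 0.00635, SD, n = 2) through untreated STAT2-null and treated ADAR2-null to untreated p150-knockout cells (6.75% ± 0.160). A gap then separated untreated ADAR1-null cells (3.77% ± 0.871), whose range overlapped that of untreated ADAR2-null cells (2.29% ± 1.37). The lowest means were those of treated ADAR1-null (1.25% ± 1.62) and treated p150-knockout cells (0.141% ± 0.125). The treated p150-knockout value rests on 2 and 8 edited reads.

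**Figure D3:**
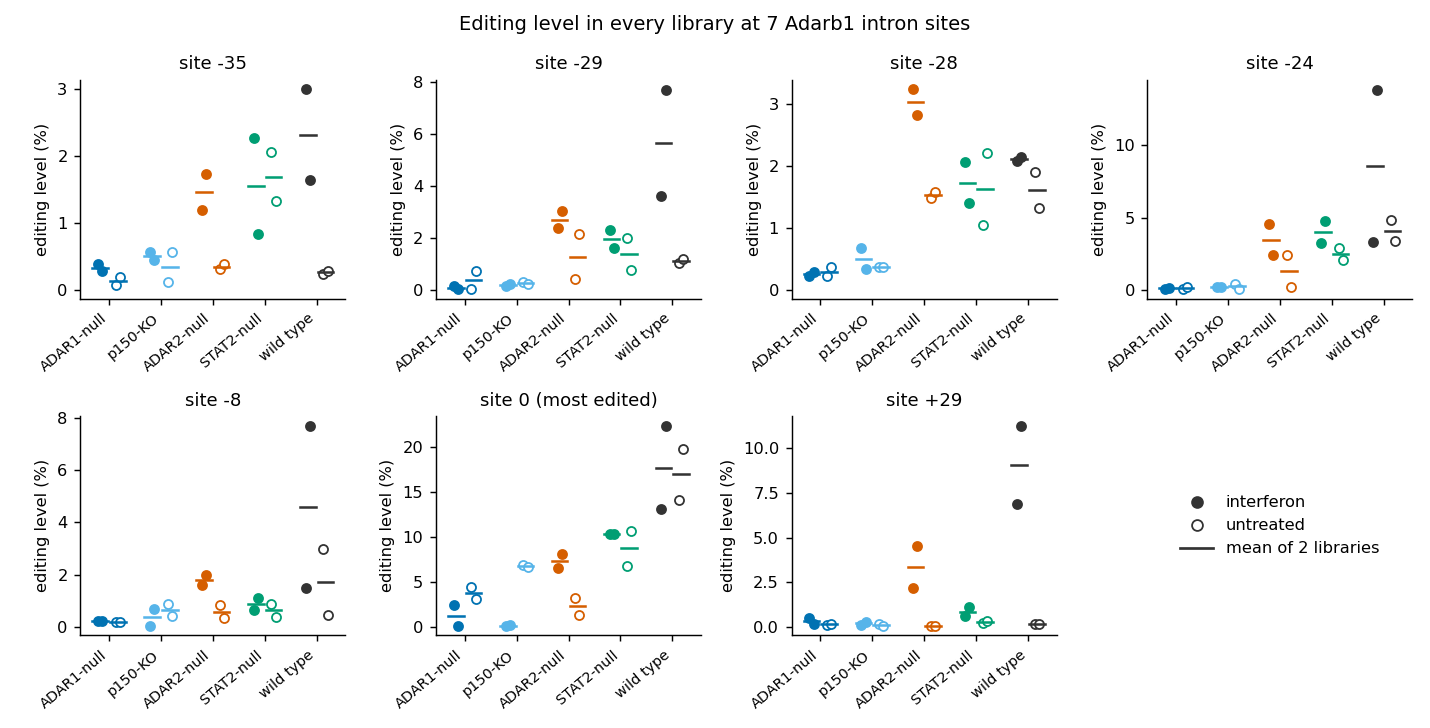
Editing level in each library (vertical axes, percent, each panel on its own scale) at 7 Adarb1 sites, with lines along the horizontal axis from ADAR1-null to wild type. Filled points are interferon-treated libraries, open points untreated ones, and bars the mean of the 2 libraries; at site +29 the treated wild-type libraries (6.88% and 11.2%) and treated ADAR2-null libraries (2.16% and 4.53%) stand above all others.

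Differences were tested on edited and unedited reads by the quasi-likelihood test of edgeR, with p adjusted by Benjamini-Hochberg over all sites tested in a comparison, and a site was called at an adjusted p under 0.05. A site entered a comparison when every library covered it with 50 or more reads and its level averaged 1% or more in the libraries compared. That minimum admits an Adarb1 site through the group where it is high, so the counts of called sites describe the sites and are read beside the share of all tested sites that was called. The 7 Adarb1 sites tested in at least 1 comparison were -35, -29, -28, -24, -8, 0 and +29. The comparisons with wild type share the wild-type libraries. Differences in level are given in percentage points, with a standard error from the spread between libraries.

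With interferon, ADAR1-null cells held less editing than wild type at all 7 sites tested, among 69.5% of 1159 sites called over all genes. At site 0 the difference was -16.4 points (SE 4.73, adjusted p = 0.000309), a log2 odds ratio of -5.08. At site +29 the treated ADAR1-null libraries had 0.522% and 0.163%, against 6.88% and 11.2% in treated wild type (-8.71 points, SE 2.19, adjusted p = 2.00e-05). At site -24 they had 0.115% and 0.180%, against 3.34% and 13.8% in wild type (-8.42 points, SE 5.23, adjusted p = 0.000234). The groups did not overlap at any of these sites, but the second treated wild-type library held much more editing than the first at sites -24, -29 and -8. Without it the difference at site -24 was -3.19 points and at site -29 -3.52 points in place of -5.57, both still called. Site -8 gave -1.25 in place of -4.35 points without it, and fell below the minimum level there, so it had no test. With the first treated wild-type library left out, the differences at sites -24, -8 and -35 were -13.7, -7.45 and -1.31 points. Site -35 fell below the minimum level there, so it had no test. The smallest differences were at the upstream sites -28 (-1.86 points, SE 0.0436, adjusted p = 0.00123) and -35 (-1.98 points, SE 0.676, adjusted p = 0.00592). Fitting the treated ADAR1-null and wild-type libraries alone ended the call at site 0 (adjusted p = 0.0582).

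Untreated ADAR1-null cells held less editing than untreated wild type at both sites tested, sites 0 and -24, among 49.2% of 386 sites called. Site -24 had 0.0837% and 0.200% in ADAR1-null libraries, against 4.81% and 3.38% in wild type (-3.95 points, SE 0.721, adjusted p = 0.00136). This call held whichever library was left out. At site 0 the difference was -13.1 points (SE 2.89, adjusted p = 0.0446). That call ended without any 1 of the 4 libraries, with adjusted p between 0.0536 and 0.158, although the ADAR1-null and wild-type libraries did not overlap. It was lost with limma on log odds too (adjusted p = 0.0703), as with a replicate block (adjusted p = 0.0516).

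The p150-knockout cells resembled ADAR1-null cells in direction with interferon. All 7 sites tested were lower than in treated wild type, among 64.5% of 1039 sites called. Site 0 differed by -17.5 points (SE 4.59, adjusted p = 1.03e-05), the largest difference of any Adarb1 site in the comparisons of 2 groups. Site +29 had 0.105% and 0.286% in p150-knockout libraries, against 6.88% and 11.2% in wild type (-8.86 points, SE 2.18, adjusted p = 7.10e-06). Sites -24 (-8.35 points), -29 (-5.48) and -8 (-4.20) followed, and sites -35 (-1.81) and -28 (-1.61) had the smallest differences. The second treated wild-type library again carried part of these values, with -3.12 points at site -24 and -3.43 points at site -29 without it. Site -8 gave -1.11 points without it and fell below the minimum level, so it had no test. Without the first treated wild-type library, site -24 gave -13.6 and site -8 -7.30 points. The calls at sites -8 (without the first treated p150-knockout library, adjusted p = 0.0850), -28 (without the second, 0.0912) and -35 (without either, 0.0685 and 0.0918) each rested on single libraries.

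Untreated, the p150-knockout and wild-type groups were called different at 1 of 3 Adarb1 sites tested, among 33.1% of 517 sites. Site -24 had 0.410% and 0.101% in p150-knockout libraries, against 4.81% and 3.38% in wild type (-3.84 points, SE 0.735, adjusted p = 0.00768). The call ended without the second untreated p150-knockout library (adjusted p = 0.0735). Site 0 kept 6.86% and 6.63% in the p150-knockout libraries, against 14.1% and 19.7% in wild type, and was not called (-10.2 points, SE 2.82, adjusted p = 0.210). Untreated p150-knockout and ADAR1-null libraries overlapped at site -24, while at site 0 both p150-knockout libraries lay above both ADAR1-null ones, a difference between these lines that was not tested. Site -8 had 0.872% and 0.408%, against 2.98% and 0.438% in wild type, and was not called (adjusted p = 0.467).

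The ADAR2-null line is labelled as lacking the enzyme that the gene encodes, and edited reads were present at its Adarb1 sites. Untreated, 1 of 5 sites tested was lower than in wild type, among 13.6% of 588 sites called. This was site 0, at 3.26% and 1.32% in ADAR2-null libraries, against 14.1% and 19.7% in wild type (-14.6 points, SE 2.98, adjusted p = 0.0363). The call was lost without the second wild-type library (adjusted p = 0.105) or without either ADAR2-null library (0.0568 and 0.190), with limma (0.0530) and in a fit of these 2 groups alone (0.0867). The upstream sites -28 and -29 stood closer to wild type, and whether the sites differed in this was not tested. Site -28 had 1.49% and 1.59% in ADAR2-null libraries, against 1.91% and 1.32% in wild type, a difference of -0.0774 points (SE 0.298, adjusted p = 0.964). Site -29 had 0.417% and 2.17%, against 1.05% and 1.18% in wild type (0.176 points, SE 0.878, adjusted p = 0.925). At site -24 the 2 ADAR2-null libraries disagreed, at 2.44% and 0.193%, against 4.81% and 3.38% in wild type (adjusted p = 0.140, and 0.0266 without the first ADAR2-null library).

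With interferon, none of the 7 sites tested was called between ADAR2-null and wild-type cells (edgeR gave 0, limma 0, and 1 had an unadjusted p under 0.05), among 2% of 1348 sites called. Site 0 stood at 6.56% and 8.08%, against 13.1% and 22.2% in wild type (-10.3 points, SE 4.66, adjusted p = 0.492). Site +29 stood at 2.16% and 4.53%, against 6.88% and 11.2% in wild type (-5.71 points, SE 2.48, adjusted p = 0.308). The treated groups did not overlap at either site, so the missing calls do not show equal levels. Site -28 was the one site with a higher mean in ADAR2-null cells, with 3.24% and 2.82%, against 2.09% and 2.15% in wild type (0.912 points, SE 0.213, adjusted p = 0.826).

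STAT2-null cells were compared with wild type to see how the sites stood in a line that lacks a component of interferon signalling. Untreated, none of the 5 sites tested was called (edgeR gave 0, limma 0, and 0 had an unadjusted p under 0.05), among 2.95% of 643 sites. Site 0 had 6.78% and 10.6%, against 14.1% and 19.7% in wild type, groups that did not overlap (-8.21 points, SE 3.42, adjusted p = 0.542). With interferon, 1 of 7 sites tested was lower, among 40.9% of 1217 sites called. It was site +29, at 0.622% and 1.09% in STAT2-null libraries, against 6.88% and 11.2% in wild type (-8.20 points, SE 2.19, adjusted p = 0.000991), and the call held without any 1 library. Site 0 was not called there, at 10.3% and 10.3%, against 13.1% and 22.2% in wild type (-7.39 points, SE 4.59, adjusted p = 0.411). Site -24 had 3.27% and 4.78%, against 3.34% and 13.8% in wild type, with overlapping groups (adjusted p = 0.461).

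The ADAR2-null and ADAR1-null lines were set against each other because each lacks a different editing enzyme. With interferon, 6 of 6 Adarb1 sites tested were higher in ADAR2-null cells, among 68.8% of 1078 sites called. Site 0 differed by 6.07 points (SE 1.37, adjusted p = 0.00253), site -24 by 3.33 points (SE 1.08, adjusted p = 0.000757) and site +29 by 3.0 points (SE 1.20, adjusted p = 0.000417; 1.81 points when treated ADAR2-null replicate 2 was left out). Site -28 had 3.24% and 2.82% in ADAR2-null libraries, against 0.231% and 0.288% in ADAR1-null libraries (2.77 points, SE 0.212, adjusted p = 0.000264). Site -29 differed by 2.62 points (SE 0.329, adjusted p = 0.000623) and site -8 by 1.58 points (SE 0.189, adjusted p = 0.00872). Sites +29, -29 and -8 fell below the minimum level without the second treated ADAR2-null library and had no test there. The same held for sites -24 and -8 without the first. Without the second treated ADAR1-null library the calls at sites 0 and -8 ended (adjusted p = 0.0867 and 0.0595), and a fit of these 2 groups alone ended that at site 0 (0.0653). Without interferon the minimum level left only site 0, with 3.26% and 1.32% in ADAR2-null libraries, against 4.38% and 3.15% in ADAR1-null libraries. It was not called (-1.48 points, SE 1.15, adjusted p = 0.519; 0 of 1 Adarb1 site by edgeR and by limma, and 0 with an unadjusted p under 0.05), among 36.4% of 236 sites called.

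**Figure D4:**
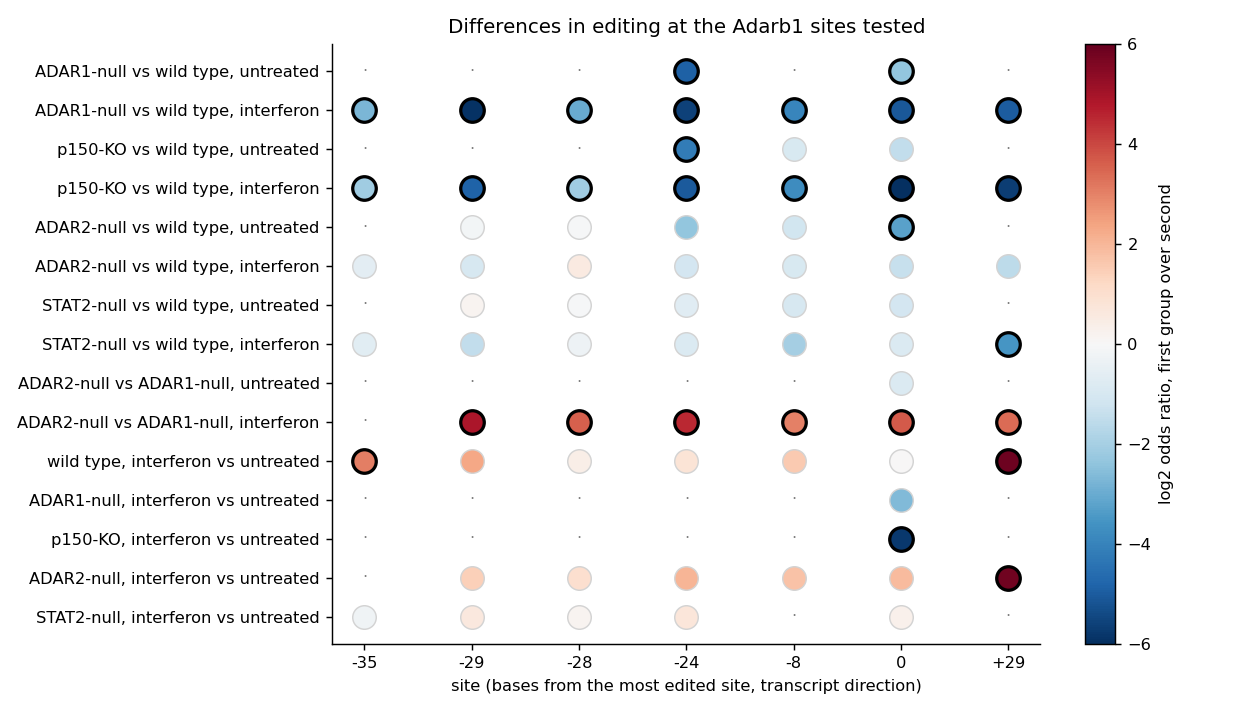
Log2 odds ratio of editing (colour, first-named group over second, colours saturating at 6 in either direction) for 7 Adarb1 sites (horizontal axis, bases from the most edited site) in the 15 comparisons of 2 groups (vertical axis). Black rims mark an edgeR adjusted p under 0.05, grey rims sites tested and not called, and dots sites below the minimum mean level; site +29 is deep red in wild-type and ADAR2-null cells with interferon, and site 0 deep blue in p150-knockout cells with interferon.

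In wild-type cells 2 of 7 Adarb1 sites tested rose with interferon, sites +29 and -35, among 41% of 1223 sites called. Whether the sites changed by different amounts was not tested. Site +29 had 6.88% and 11.2% in treated libraries, against 0.155% and 0.169% in untreated ones, a rise of 8.89 points (SE 2.18, adjusted p = 2.35e-05) and a log2 odds ratio of 5.88. Site -35 had 3.0% and 1.65%, against 0.247% and 0.282% untreated (2.06 points, SE 0.674, adjusted p = 0.00577), a call that ended in a fit of the 2 groups alone (0.0586). Site 0 lies between them and had overlapping groups, at 13.1% and 22.2% with interferon, against 14.1% and 19.7% untreated (0.738 points, SE 5.39, adjusted p = 0.969). Its direction turned without the second treated library (-3.85 points) or the first untreated one (-2.08 points). Site -29 had 3.62% and 7.72% in treated libraries, against 1.05% and 1.18% untreated, groups that did not overlap, and missed the threshold (4.55 points, SE 2.05, adjusted p = 0.0672), though it was called without the first treated library (0.0356). Site -28, the base next to it, had 2.09% and 2.15%, against 1.91% and 1.32% untreated (0.503 points, SE 0.296, adjusted p = 0.618). Sites -24 and -8 had overlapping groups and were not called (adjusted p = 0.485 and 0.207), though site -8 was called without the first treated or the first untreated library (lowest adjusted p = 0.0239).

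ADAR2-null cells showed a rise at site +29 as well. This site had 2.16% and 4.53% with interferon, against 0.0701% and 0.0388% untreated, which is 4 and 2 edited reads (3.29 points, SE 1.19, adjusted p = 8.53e-06, log2 odds ratio 5.85). Without the second treated library the rise was 2.10 points, and site +29 fell below the minimum level, so it had no test. It was the 1 site called of 6 tested, among 52.3% of 1145 sites called. The other 5 sites had higher means with interferon and were not called, with adjusted p from 0.0680 (site 0) to 0.218 (site -28). At site 0 the treated libraries had 6.56% and 8.08%, against 3.26% and 1.32% untreated (5.03 points, SE 1.23), and a fit of these 2 groups alone called it (adjusted p = 0.0220). At site -28 they had 3.24% and 2.82%, against 1.49% and 1.59% untreated (1.49 points, SE 0.215), groups that did not overlap.

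In the other 3 lines no Adarb1 site past the minimum level was called higher with interferon. In ADAR1-null cells site 0 was the only site tested. It had 2.40% and 0.109% with interferon, against 4.38% and 3.15% untreated, and was not called (-2.51 points, SE 1.30, adjusted p = 0.344). No site of any gene was called by edgeR in that line (0% of 114 sites, 16 at an unadjusted p under 0.05) or by limma (0). Without the first treated library, site 0 was called lower (-3.66 points, adjusted p = 0.00242). In STAT2-null cells 5 sites were tested and none was called (limma gave 0 Adarb1 sites, and 0 had an unadjusted p under 0.05), and no site of any gene was called by edgeR (0% of 658 sites, 19 at an unadjusted p under 0.05) or by limma (0). Site 0 had 10.3% and 10.3% with interferon, against 6.78% and 10.6% untreated (1.57 points, SE 1.92, adjusted p = 0.999). Site +29, below the minimum level there, had 0.622% and 1.09% with interferon, against 0.206% and 0.335% untreated, in libraries that did not overlap.

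In p150-knockout cells site 0 fell with interferon. The treated libraries had 2 edited of 3822 reads (0.0523%) and 8 of 3495 (0.229%), against 433 of 6312 (6.86%) and 391 of 5894 (6.63%) untreated. The level fell by 6.61 points (SE 0.143, edgeR adjusted p = 0.0123), at a log2 odds ratio of -5.81. It was the 1 Adarb1 site tested, in a comparison where 1.65% of 243 sites were called. The call ended without either untreated p150-knockout library (adjusted p = 0.132 and 0.138), and in a fit of the 2 groups alone (0.751), at differences of -6.49 to -6.72 points. The treated p150-knockout libraries also had the lowest coverage of the amplicon, 1738 to 3823 reads per site, against 2922 to 6316 in the untreated ones, and the part of this in the result was not tested. The other Adarb1 sites in that line stayed at or below 0.872% in both treatments among those whose mean over all groups reached 1%. Site -28 had 0.678% and 0.341% with interferon, against 0.378% and 0.372% untreated.

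The difference of each line's interferon response from that of wild type was tested directly, on the log odds scale. The share of sites called over all genes was 12.3% of 754 for ADAR1-null, 17.2% of 839 for p150-knockout, 0.175% of 1146 for ADAR2-null and 13.8% of 1026 for STAT2-null cells. At site +29 ADAR1-null cells changed less with interferon than wild type, by -8.69 points (SE 2.19, edgeR adjusted p = 0.00828). This was the 1 called site of 6 tested in that line, and the call held without any 1 library. In p150-knockout cells the difference at site +29 was -8.79 points (SE 2.18, adjusted p = 0.00769), and in STAT2-null cells -8.31 points (SE 2.19, adjusted p = 0.0115). The p150-knockout call ended without the first untreated p150-knockout library (adjusted p = 0.113), and the STAT2-null call without either of 2 STAT2-null libraries, treated replicate 1 (0.0566) or untreated replicate 2 (0.0568). For ADAR2-null cells the difference at site +29 was -5.60 points (SE 2.48) and was not called (adjusted p = 1). The log2 odds ratios of the 2 responses differed by -0.03, while the rise in level was 3.29 points in ADAR2-null and 8.89 points in wild-type cells. None of the 7 ADAR2-null sites was called (edgeR gave 0, limma 0, and 0 had an unadjusted p under 0.05).

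Site 0 was the second site called of 6 tested for p150-knockout cells, with a response of -6.61 points, against 0.738 points in wild type (difference -7.34 points, SE 5.39, adjusted p = 0.00718). The call held without any 1 library, but its size did not: it was -2.75 points without the second treated, -11.9 without the first treated and -4.52 without the first untreated wild-type library. Site 0 was not called in the other 3 lines (adjusted p = 0.189 in ADAR1-null, 0.607 in ADAR2-null and 0.980 in STAT2-null cells). In ADAR1-null cells it was called without the first treated ADAR1-null library (adjusted p = 0.00728). Site -35 was the second of 7 sites called for STAT2-null cells. Its levels were 2.27% and 0.836% with interferon, against 2.06% and 1.33% untreated (difference from the wild-type response -2.20 points, SE 1.05, adjusted p = 0.0476). That call ended without any of 7 of the 8 libraries, the exception being the second treated wild-type library, with adjusted p up to 0.186.

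Because the minimum level picks sites through the group where they are high, all 20 sites were also tested with no minimum level. With interferon, 7 of 20 were called in ADAR1-null cells, all below wild type (13.8% of all sites called), and 5 of 20 in p150-knockout cells (14.4%). Between treated ADAR2-null and ADAR1-null cells 7 of 20 were called, all higher in ADAR2-null (10.1% of all sites). These included site +14 (position 76786791) at 1.57% and 0.169% in ADAR2-null libraries, against 0.0387% and 0.0725% in ADAR1-null ones (0.816 points, adjusted p = 0.00291). Without the first ADAR2-null library that difference was 0.114 points. Untreated, 3 of 20 were lower in ADAR1-null cells than in wild type (3.73% of all sites called), with site -8 beside sites 0 and -24. The site -8 difference of -1.52 points was -0.248 points without the first wild-type library and -2.79 without the second. In untreated p150-knockout cells 2 of 20 were called (1.93%), site -24 lower and site +7 (76786798) 0.427 points higher. Both p150-knockout libraries (0.254% and 0.713%) lay above wild type there (0 of 6444 reads, which allows up to 0.0466%, and 0.113%), and without the second of them the difference was 0.197 points, without the first 0.656. ADAR2-null cells gave 1 of 20, site 0, untreated (1.09%) and 0 of 20 with interferon (0.964%, with 4 of the 20 at an unadjusted p under 0.05). STAT2-null cells gave 1 of 20 with interferon (8.43%), site +29, and 1 of 20 untreated (0.453%), site +8 (76786797). Site +8 had 0 of 5324 reads edited, which allows up to 0.0563%, and 0.0529% in untreated STAT2-null libraries, against 0.124% and 1.46% in wild type (-0.764 points). Without the second wild-type library that difference was -0.0976 points. Untreated ADAR2-null against ADAR1-null cells gave 0 of 20 by edgeR (1.38%), with 6 at an unadjusted p under 0.05.

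For interferon against untreated, the same test called 2 of 20 sites in wild type (9.24% of all sites), 1 of 20 in ADAR2-null (7.02%) and 0 of 20 in ADAR1-null cells (0.0214%, with 2 of the 20 at an unadjusted p under 0.05). In p150-knockout cells 1 site was called among 4820 of all genes (0.0207%), and it was site 0 of Adarb1 (adjusted p = 4.65e-09). In STAT2-null cells 1 site was called among 6782 (0.0147%), site +8 of Adarb1, at 0.640% and 0.690% with interferon, against 0 edited reads and 0.0529% untreated (0.638 points, adjusted p = 0.00442). Site +8 was thus the 1 place where a treated STAT2-null group passed a test against its untreated group. Libraries of the same group differed widely at site +8 elsewhere: it had 1.21% and 0.0636% in treated and 0.124% and 1.46% in untreated wild type, and 1.10% and 0.285% in untreated ADAR1-null libraries. The responses differed from wild type at 1 of 20 sites in ADAR1-null (1.28% of all sites), 2 in p150-knockout (1.73%), 0 in ADAR2-null (0.173%, with 3 at an unadjusted p under 0.05) and 2 in STAT2-null cells (2.06%), the last being sites +29 and +8.

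Within the amplicon the sites did not keep a fixed ratio to each other. Over the 6 sites with a mean of at least 1%, site 0 gave 65.7% and 10.9% of their summed level in treated and 87.2% and 65.6% in untreated ADAR1-null libraries. It gave 4.18% and 11.4% of the sum in treated and 76.4% and 85.2% in untreated p150-knockout libraries. In ADAR2-null libraries its share was 32.0% and 35.3% with interferon and 38.2% and 23.4% untreated. The share was 53.5% and 50.6% in treated and 49.1% and 64.7% in untreated STAT2-null libraries, and 42.9% and 34.3% in treated and 56.4% and 75.3% in untreated wild-type libraries. Site 0 thus held a smaller share of the editing in every ADAR2-null library than in any untreated p150-knockout or ADAR1-null library. This order did not hold against all treated libraries. Both treated p150-knockout libraries and the second treated ADAR1-null library lay below every ADAR2-null library. The second treated wild-type library lay within the ADAR2-null range. The summed level was only 1.25% in the first treated p150-knockout and 0.994% in the second treated ADAR1-null library. No background was subtracted from these sums. Over the 20 libraries, Pearson's r was 0.924 between sites -24 and -8 and 0.915 between sites -29 and +29, which are 58 bases apart. It was 0.622 between the adjacent sites -29 and -28 and 0.596 between sites 0 and +29. These values describe libraries that share lines and an amplicon, and carry no test.

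The sites of other genes whose levels followed site 0 most closely were sought among 598 sites in 112 genes with enough reads in all 20 libraries. The highest Pearson's r were 0.873 for 4933407H18Rik (chromosome 5, position 33758586, 3′ UTR), 0.868 for the transcript uc009qeo.1 (chromosome 9, 66221350, 3′ UTR) and 0.860 for Pdcd2 (chromosome 17, 15659249, intronic). Fbxl17 (chromosome 17, 63403502, 3′ UTR) had 0.847 and Mad2l1 (chromosome 6, 66490206, 3′ UTR), a spindle checkpoint gene, 0.843. The 4933407H18Rik site had mean levels of 0.197% in treated and 5.55% in untreated p150-knockout cells, and of 39.3% in treated and 22.5% in untreated wild-type cells. The Mad2l1 site had 0.673% in treated and 3.28% in untreated p150-knockout cells, and of 22.8% in treated and 16.3% in untreated wild-type cells. The points are libraries of the same 10 groups, so r mostly sets group means side by side.

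A list of 14 genes with sites attributed mainly to ADAR2 was set beside the Adarb1 sites. In ADAR2-null cells 4 of 10 tested sites of the list were lower than in wild type untreated (median difference -9.12 points) and 4 of 12 with interferon (-8.30 points), with none higher. The median over all sites tested was -2.30 points untreated and -1.88 points with interferon. Over all sites, 13.6% untreated and 2% with interferon were called in these comparisons. In ADAR1-null cells 5 of 9 were lower untreated (49.2% of all sites called) and 10 of 12 with interferon (69.5%), and none was higher. In p150-knockout cells 6 of 10 were lower untreated (33.1%) and 5 of 11 with interferon (64.5%). In STAT2-null cells the list gave 2 of 10 lower untreated (2.95%), all in Gria3, and 4 of 13 with interferon (40.9%), in Cyfip2 and Gria3. The list sites tested in these comparisons with wild type came from 4 to 7 of the 14 genes, and sites of 1 gene are not independent. With interferon against untreated wild type, 0 of 15 list sites were called by edgeR (41% of 1223 sites over all genes) and 2 by limma, and 0 had an unadjusted p under 0.05.

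Cog3, a Golgi trafficking gene recoded from isoleucine to valine (chromosome 14, 76119526), is a site of that list. Its level was 12.8% ± 1.04 in treated and 7.93% ± 0.286 in untreated ADAR2-null cells, against 85.6% ± 0.90 in treated and 91.2% ± 1.47 in untreated wild type (SD, n = 2). It was lower than in wild type with interferon (-72.9 points, edgeR adjusted p = 0.00332) and untreated (-83.3 points, 6.50e-05). Site 0 of Adarb1 was called lower in the untreated ADAR2-null line and not in the treated one, and whether the sites of the 2 genes differ in this was not tested. In ADAR1-null cells it had 31.3% ± 2.71 with interferon and 51.0% ± 0.919 untreated, also lower than in wild type (-54.3 points, adjusted p = 0.00133, and -40.2 points, 0.000999). In p150-knockout cells Cog3 stood at 63.8% ± 5.09 with interferon and 65.2% ± 3.30 untreated (-1.43 points, adjusted p = 0.962), while site 0 fell. Gria3, a subunit of AMPA-type glutamate receptors with an arginine-to-glycine site (chromosome X, 39007429), had 0.345% ± 0.488 in treated STAT2-null cells, against 34.1% ± 2.91 in treated wild type. Site 0 of Adarb1 had 10.3% in both of those STAT2-null libraries. Gria3 had 7.23% ± 2.11 in treated ADAR2-null cells, a difference from wild type that was not called (-26.9 points, edgeR adjusted p = 0.334). It was higher there than in treated ADAR1-null cells, at 0.169% ± 0.239 (7.06 points, adjusted p = 0.00283).

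A second list holds 3 genes with sites attributed mainly to ADAR1, of which Blcap, recoded from tyrosine to cysteine (chromosome 2, 157383885), had the highest level. In ADAR1-null cells 3 of 4 tested sites of the list were lower than in wild type untreated (49.2% of all sites called) and 3 of 3 with interferon (69.5%). All of these called sites are in Blcap, so they describe 1 gene. The tested sites came from 2 genes of the list untreated and from 1 with interferon, and from 2 in each ADAR2-null comparison below. In ADAR2-null cells 0 of 4 were called in either treatment (edgeR gave 0, limma 0, and 0 had an unadjusted p under 0.05). The share of all sites called was 13.6% untreated and 2% with interferon in these comparisons. Blcap had 0.174% ± 0.0953 in treated and 0.284% ± 0.146 in untreated ADAR1-null cells, against 26.1% ± 1.99 and 14.8% ± 3.61 in wild type. In ADAR2-null cells it had 18.4% ± 0.957 with interferon and 19.3% ± 5.40 untreated. Neil1, a DNA repair glycosylase recoded from asparagine to serine (chromosome 9, 56992498), had at most 2.09% ± 1.60, in untreated wild type. Site 0 of Adarb1 was called lower untreated in the ADAR1-null and in the ADAR2-null line, both calls that ended without single libraries.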

How the data were processed

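Editing was measured in 20 libraries from 5 mouse embryonic fibroblast lines. Per the labels' protocols, PCR products of a sample were pooled and indexed in a 15-cycle PCR. Reads were handled with BWA and SAMtools against mm9, per the submitters' processing notes; versions and filters were not stated in those notes. Each library has a table in which the authors deposited coverage and edited reads as counts and the editing level as a fraction; levels were recomputed from the counts. Whether positions count from 0 or 1 is not stated, and no sequence is given because no mm9 genome was used.

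Edited and unedited counts of all sites were fitted in all 20 libraries with edgeR 4.0.16 (R 4.3.3; modelMatrixMeth, glmQLFit, glmQLFTest), with 1 coefficient per group, in 19 two-sided comparisons. Sites needed 50 or more reads in every library compared and a level averaging 1% or more in them, and p-values were adjusted by Benjamini-Hochberg over all such sites. Alternatives were coverage minimums of 20 and 100 reads, no minimum level, limma 3.58.1 on log2 odds with 0.5 added to both counts, a fit of the compared groups alone, a replicate block, each library left out, and, chosen after seeing the data, halved reads at sites of doubled coverage. With no minimum level, values without a library are differences of means, with no refit. The model was tested on simulated data. Sites described library by library have a mean over groups of at least 1%; site -35 is added because it was tested. Sites of other genes are the best-correlated site in each of 5 genes and, for each list, the site with the highest level in up to 3 genes, of which 1 is not reported here. The members, lists and rules were chosen with earlier results of these data known. The labels do not say whether both libraries of a group are from different cultures; the p-values reflect only the spread between them, which may be technical. Chi-square values between the libraries of a group were 2.44 to 26.8 per degree of freedom, so none was treated as a duplicate deposit. Tables were made with pandas 2.3.3 and scipy 1.17.1 in Python 3.11.15, figures with matplotlib 3.10.9.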

Additional observations from a re-analysis of the deposited data

Results flagged for a closer look

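Site +29 (position 76786776) stood out because its response to interferon differed between lines by a direct test (edgeR, Benjamini-Hochberg adjusted). Its mean level was 0.343% in treated and 0.140% in untreated ADAR1-null cells, 0.195% and 0.0882% in p150-knockout cells and 0.858% and 0.271% in STAT2-null cells, against 9.05% and 0.162% in wild type. The differences from wild type were -8.69 points in ADAR1-null (adjusted p = 0.00828), -8.79 points in p150-knockout (adjusted p = 0.00769) and -8.31 points in STAT2-null cells (adjusted p = 0.0115). The calls in p150-knockout and STAT2-null cells ended without single libraries of those lines, while that in ADAR1-null cells held.

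Site 0 (76786805) stood out in the same test for p150-knockout cells, at -7.34 points (adjusted p = 0.00718). All 4 p150-knockout libraries had less editing than any wild-type library there, and the treated ones less than the untreated ones. Site -35 (76786840) stood out for STAT2-null cells at -2.20 points (adjusted p = 0.0476), a call that ended without any of 7 of the 8 libraries.

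Among the Adarb1 sites with too few reads for the comparisons, the synonymous site at position 76785261 (threonine unchanged) showed a signal in treated wild-type cells. It had 3 of 7 and 1 of 5 edited reads there, 4 of 12 in all, a level of 33.3% (exact 95% interval 9.92% to 65.1%, counting error only). The untreated wild-type libraries had 0 of 12 reads edited, which allows a level of up to 25.0%, and all 20 libraries together had 4 of 58. The difference rests on 4 edited reads and was not tested.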

How the results depend on the processing

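Over all tested differences at Adarb1 sites, the called ones kept direction and call in 219 of 238 refits under other settings and in 117 of 143 refits without 1 library, and lost the call in the others. Refits in which the site fell below the minimum level gave no test and are not counted here. Uncalled differences changed sign in 29 refits without 1 library, 13 of them without the second treated wild-type library. Fitting the compared groups alone changed most: the number of called sites was 4 in place of 7 for p150-knockout against wild type with interferon, 0 in place of 1 for ADAR2-null against wild type untreated, 1 in place of 2 for wild type with interferon, 0 in place of 1 for p150-knockout with interferon, 3 in place of 1 for ADAR2-null with interferon, and 1 in place of 2 for the responses of p150-knockout and of STAT2-null cells. This fit estimates the spread from fewer libraries. By limma, 1 in place of 2 sites was called for untreated ADAR1-null against wild type, 0 in place of 1 for untreated ADAR2-null and 1 in place of 2 for the STAT2-null response. With no minimum level, 2 in place of 1 were called for untreated p150-knockout, and 1 in place of 0 for untreated STAT2-null against wild type and for STAT2-null with interferon, over more sites. A minimum of 20 reads gave 1 in place of 2 for the STAT2-null response. Over all genes, limma called 264 sites in place of 93 for the ADAR1-null response, 284 in place of 144 for p150-knockout, 247 in place of 142 for STAT2-null and 1 in place of 2 for ADAR2-null cells, and 2 in place of 4 for p150-knockout with interferon. Minimums of 100 reads and counting 1 of every 2 reads at the doubled sites changed no count.

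Replicate numbers did not pair the libraries: over 604 sites the correlation of same-numbered deviations in 45 pairs of groups ran from -0.109 to 0.106 (median -0.00436). With a replicate block 1 in place of 2 sites was called for untreated ADAR1-null against wild type and for the STAT2-null response, and no other count moved by over 1.5 times.

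Without 1 library, the number called against wild type was 1 to 2 for untreated ADAR1-null, 0 to 1 for untreated p150-knockout and untreated ADAR2-null, and 1 to 2 for treated STAT2-null cells. Between ADAR2-null and ADAR1-null cells it was 0 to 1 untreated and 3 to 6 with interferon. For interferon against untreated it was 0 to 1 in ADAR1-null, 0 to 1 in p150-knockout and 0 to 2 in ADAR2-null cells. For responses against wild type it was 1 to 2 for ADAR1-null, 1 to 3 for p150-knockout and 0 to 2 for STAT2-null cells. Against wild type with interferon, the number called fell in every such refit for p150-knockout cells and in some for ADAR1-null cells. Sites that dropped below the minimum level had no test there. At site 0 the difference with interferon ran from -3.85 to 5.33 points in wild type and from -0.360 to 3.49 points in STAT2-null cells. The cause of these changes was not tested. With 2 libraries per group, 1 line per genotype and all sites in 1 amplicon, neither culture nor clone effects can be told apart from genotype, and levels below 1% rest on few edited reads.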
